A study of Rattus norvegicus with 6 samples.

Results

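RIPK1, the kinase inhibited by ZJU-37, and 9 partners of its death complexes were examined in the RNA-seq of primary rat oligodendrocyte precursor cells (OPCs), the glial progenitors that give rise to myelinating cells. The members were taken by gene name and are Ripk1, Ripk3, Mlkl, Fadd, Casp8, Tradd, Cflar, Tnfrsf1a, Traf2 and Birc2. All 10 names were found, each in a single row, among the 32883 genes of the table, and all 10 passed the filter on low counts, as did 14670 genes in all. The OPCs came from the cortices of newborn Sprague Dawley rats (2 animals are named), were shaken off a mixed glial culture after the microglia and were then kept in Neurobasal with B27 and N2. The ZJU-37 group received 5 µM ZJU-37, a necrostatin-1s derivative that carries an added amide bond, and the DMSO group received the same volume of solvent, each with 3 libraries. The treatment lasted 36 h according to the sample labels, and the study's methods give a shorter time. Neither a genotype nor added TNF is named for either group. The comparison asked whether inhibiting the kinase altered the transcripts of the complex to which it belongs.

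RIPK1 is a kinase and a scaffold. When TNF binds TNFR1, the adaptor TRADD, RIPK1, TRAF2 and the ubiquitin ligases cIAP1 and cIAP2 assemble at the receptor (complex I), and ubiquitin chains on RIPK1 recruit the kinases that switch on NF-kappaB. When those chains are removed, RIPK1 can join FADD and caspase-8, which leads to apoptosis, or RIPK3 and MLKL, which leads to the lytic death called necroptosis. In demyelinating disease models oligodendrocytes are among the cells in which this machinery has been studied, and microglia carry it as well. A transcript level says nothing of the kinase activity that the compound blocks.

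All 10 genes were expressed in the cultures. Expression was taken as at least 1 FPKM (fragments per kilobase of transcript, scaled to sequencing depth) in each of the 3 libraries of a group, and the 10 members met this limit in both groups. They also met a stricter limit of 2 FPKM. In FPKM, which allows levels of different genes to be set side by side, the mean of the DMSO libraries fell from 53.4 ± 4.82 (SD, n = 3) for Tnfrsf1a, which encodes TNFR1, to 4.22 FPKM for Mlkl, the pore-forming pseudokinase (range 3.11 to 5.05). Among the 14670 tested genes, mean FPKM placed Tnfrsf1a at percentile 88.6, Ripk1 at percentile 51.9 and Casp8 at percentile 27.8.

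**Figure D1:**
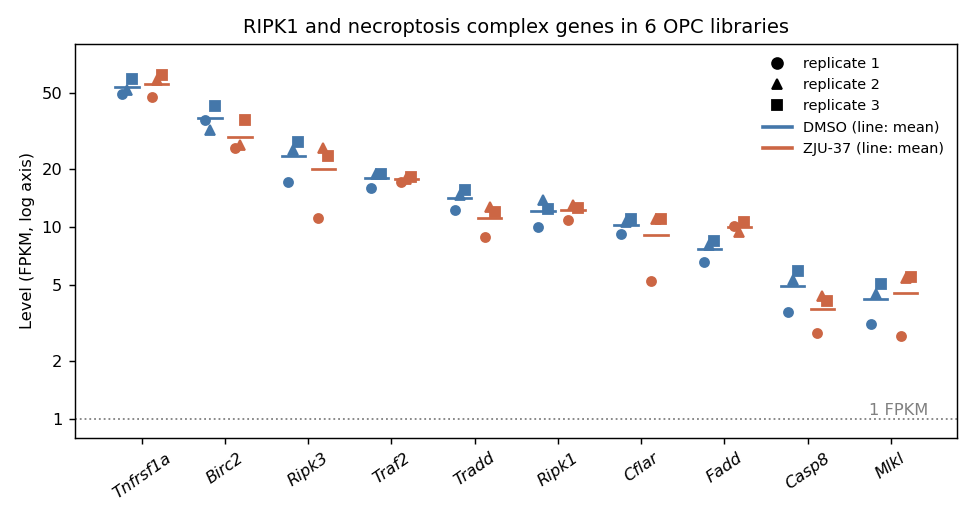
FPKM of each member in the 3 DMSO and the 3 ZJU-37 libraries on a log axis, with points for libraries and bars for the group means. Tnfrsf1a and Birc2 lay highest and Mlkl and Casp8 lowest in both groups.

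In the DMSO group the order was Tnfrsf1a, Birc2, Ripk3, Traf2, Tradd, Ripk1, Cflar, Fadd, Casp8 and Mlkl. The ranges of neighbours overlapped for Ripk3 and Traf2, for Tradd and Ripk1, for Ripk1 and Cflar, and for Casp8 and Mlkl, and the other neighbours were apart. Within each of the 3 DMSO libraries every gene nevertheless stood above the next in this order. With ZJU-37 the order of means was Tnfrsf1a, Birc2, Ripk3, Traf2, Ripk1, Tradd, Fadd, Cflar, Mlkl and Casp8, and among neighbours only Tnfrsf1a against Birc2 and Traf2 against Ripk1 had ranges that did not overlap.

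Upstream sequences are shown for 3 members, because Ripk1 is the target of the compound, Fadd is the member whose groups were apart, and Ripk3 is the necroptosis kinase. Each is the 250 bases before the annotated start of the gene in RefSeq GRCr8, read on the gene's strand, and capitals mark the GC box GGGCGG on either strand. They lie on the minus strand at chr17:31077168-31077417 (Ripk1), chr1:209174930-209175179 (Fadd) and chr15:33262026-33262275 (Ripk3).
Ripk1: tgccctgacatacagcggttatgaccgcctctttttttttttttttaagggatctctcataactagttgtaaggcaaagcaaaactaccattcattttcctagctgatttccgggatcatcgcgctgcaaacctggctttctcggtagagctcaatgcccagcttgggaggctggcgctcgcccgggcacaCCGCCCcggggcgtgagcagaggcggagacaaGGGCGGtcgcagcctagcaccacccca
Fadd: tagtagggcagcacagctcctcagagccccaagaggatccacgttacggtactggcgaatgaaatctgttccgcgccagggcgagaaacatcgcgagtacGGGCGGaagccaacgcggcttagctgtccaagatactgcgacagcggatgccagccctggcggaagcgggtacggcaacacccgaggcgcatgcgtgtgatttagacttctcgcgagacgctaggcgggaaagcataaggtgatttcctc
Ripk3: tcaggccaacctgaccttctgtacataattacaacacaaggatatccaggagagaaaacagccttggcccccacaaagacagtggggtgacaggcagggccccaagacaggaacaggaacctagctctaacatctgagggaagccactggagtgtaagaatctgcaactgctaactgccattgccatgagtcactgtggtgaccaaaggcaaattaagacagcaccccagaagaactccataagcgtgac
The Ripk1 window held 15 CpG dinucleotides and 2 GC boxes, the Fadd window 24 CpG and 1 GC box, and the Ripk3 window 1 CpG and no GC box. The median over 27457 rat promoter windows of the same length was 6 CpG. An upstream window was found for 8 of the 10 members, and Casp8 and Tradd had none. A GC box was present in 3 of the 8 windows (Ripk1, Fadd and Traf2) and in 32.4% of all windows. The TATA box TATAAA was present in 1 of the 8 (Birc2) and in 13.1% of all, and the NF-kappaB consensus, searched on both strands, in 0 of the 8 and in 6.41% of all. No overlap between these motifs was counted, and a match describes letters in the window, not a bound factor.

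ZJU-37 did not change a member past the threshold when the groups were compared directly. With edgeR's quasi-likelihood test and Benjamini-Hochberg adjustment over all tested genes, 0 of 10 members had an adjusted p under 0.05, against 15.0% of all tested genes (9.43% higher and 5.58% lower with ZJU-37). At an unadjusted p under 0.05 there was 1 of 10 members, Fadd, against 28.7% of all tested genes. DESeq2 called that same member and limma called 0. The median log2 fold change of the 10 members was -0.09, and that of all tested genes was -0.03. The groups did not overlap in CPM (counts scaled to library size) for 1 member, Fadd, against 35.2% of all tested genes. Libraries with the same replicate number deviated together from their group means. With the replicate number as a block, 4 of 10 members were called, of which 1 was higher (Fadd) and 3 were lower (Tradd, Casp8 and Birc2) with ZJU-37. The same fit called 32.1% of all tested genes, 16.2% higher and 15.9% lower, so the share of members was near the background.

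**Figure D2:**
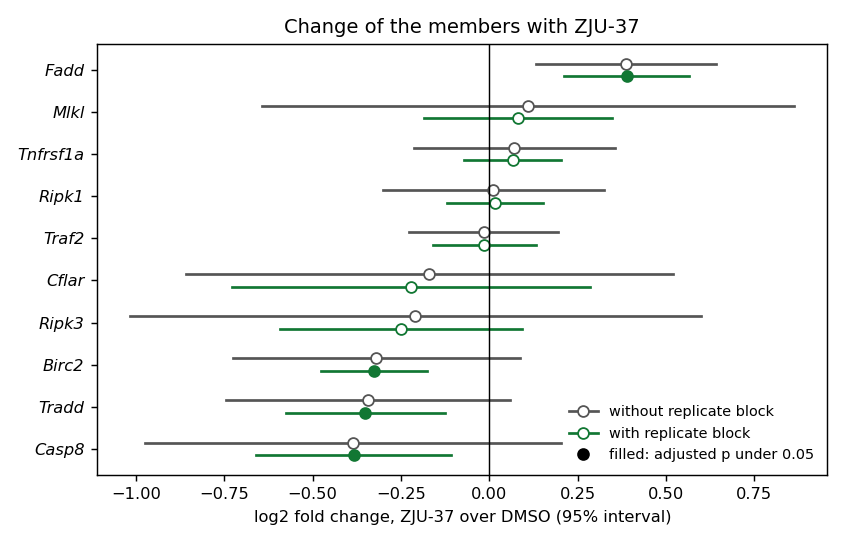
Log2 fold change of each member, ZJU-37 over DMSO, with 95% confidence intervals from edgeR without and with the replicate block, and filled symbols where the adjusted p was under 0.05. Fadd, Tradd, Casp8 and Birc2 were called with the block, and no member was called without it.

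The cultures held transcripts of other glia, and these moved with the libraries. The summed FPKM of 10 microglia markers was 1449, 2593 and 2062 in DMSO replicates 1, 2 and 3 and 1067, 2261 and 1736 in the ZJU-37 replicates, and none of the 10 was at 0. It was lower with ZJU-37 in all 3 pairs (ratios 0.736, 0.872 and 0.842), 0 of its 10 genes were called without the block and 4 were lower with it. The OPC markers summed to between 1279 and 1500 in DMSO and between 1162 and 1596 with ZJU-37, with 4 of 8 higher and 3 lower (4 and 2 with the block). For each marker list, the shares of all tested genes were 9.43% higher and 5.58% lower, and 16.2% and 15.9% with the block. The mature oligodendrocyte markers summed to between 3631 and 7089 in DMSO and between 1517 and 3111 with ZJU-37, with 2 of 8 lower (5 with the block). Astrocyte markers summed to between 264 and 425 in DMSO and between 246 and 367 with ZJU-37, with 0 called, and 1 higher and 3 lower with the block. Neuronal markers summed to 108 to 153 and 96.3 to 136, and vascular and fibroblast markers to 10.9 to 22.6 and 7.00 to 15.8, with 0 called in either list without the block and 2 and 1 lower with it, and with the endothelial gene Cldn5 listed at 0. In these bulk libraries fewer cells of a type and less RNA per cell cannot be told apart, and the part of the other cell types in the values of the members was not tested.

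The ZJU-37 replicate 1 library held the lowest FPKM for 7 of the 10 members, namely Tnfrsf1a, Cflar, Tradd, Casp8, Birc2, Ripk3 and Mlkl, and also the lowest sum of microglia markers. That library was the lowest of the 6 for 23.9% of the tested genes. The other 3 members, Ripk1, Traf2 and Fadd, were lowest in DMSO replicate 1, where 13.8% of tested genes were. No member had its minimum in a library of replicate 2 or 3.

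**Figure D3:**
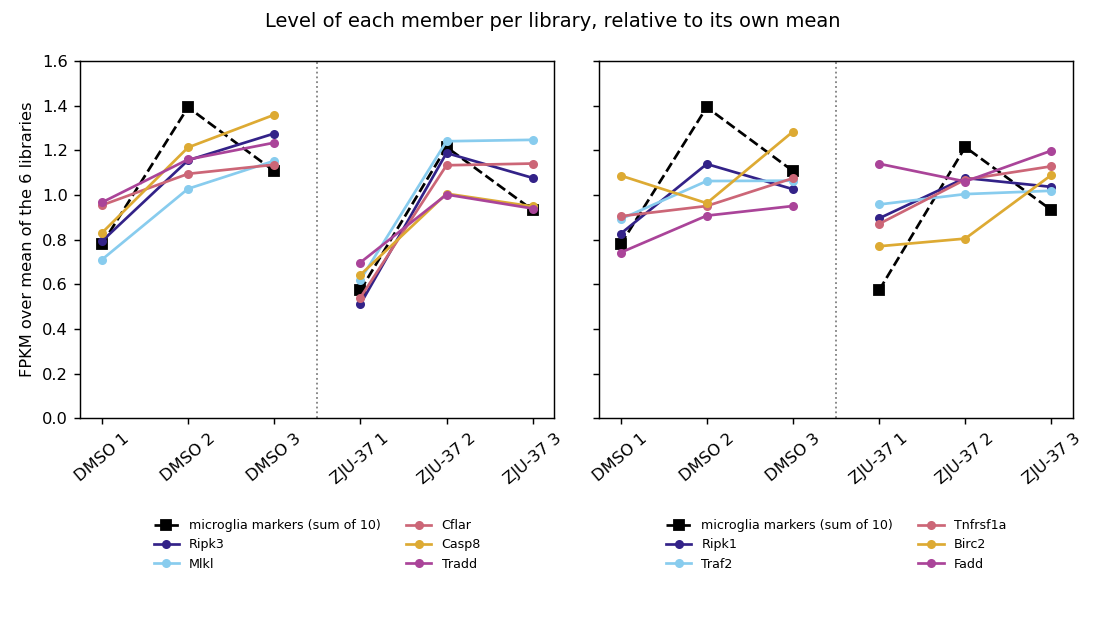
FPKM of each member in every library, divided by the member's mean over the 6 libraries, with the summed microglia markers as a dashed black line. Lines join the libraries of a group only to trace a gene. Ripk3, Mlkl, Cflar, Casp8 and Tradd (left) were lowest in ZJU-37 replicate 1, as were the microglia markers and Tnfrsf1a and Birc2 (right). Ripk1, Traf2 and Fadd (right) were lowest in DMSO replicate 1, which had the lowest microglia sum of the DMSO group. Within the ZJU-37 group Ripk1 and Traf2 were also lowest in replicate 1. The order of the libraries within each group was the same for Ripk1 and the microglia sum.

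Ripk1 itself did not differ between the groups beyond the spread. The gene (ENSRNOG00000017787) is placed on the minus strand of chromosome 17, from 31537591 to 31569904, in the coordinates of the table, whose build is not given in the sources used here. It had between 629 and 1401 counts per library. Its level was 10.1, 13.9 and 12.5 FPKM in DMSO replicates 1 to 3 and 10.9, 13.1 and 12.6 FPKM with ZJU-37. The ZJU-37 libraries all fell within the DMSO range. The fold was 1.01 with a 95% confidence interval from 0.811 to 1.25 (adjusted p = 0.970). With the block the interval ran from 0.920 to 1.11 (adjusted p = 0.866). The log2 differences of the 3 pairs were 0.09, -0.06 and 0.02.

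By correlation of log2 CPM over the 6 libraries, the tested genes whose pattern was most like that of Ripk1 were Scimp (Pearson r = 0.990), Uchl3 (r = 0.990) and Aco1 (r = 0.988). The 6 libraries share 3 replicate numbers, and 264 tested genes had r over 0.9, so this is a description only. The correlation also takes no account of the size of the differences between libraries. Uchl3 was 0.104, 15.7 and 4.41 FPKM in DMSO and 0.235, 9.05 and 6.88 FPKM with ZJU-37, a far wider range than that of Ripk1. Scimp was 4.15, 11.8 and 8.79 FPKM in DMSO and 4.86, 9.36 and 7.997 FPKM with ZJU-37, lowest in both replicate 1 libraries. Ripk1 was also lowest in those libraries within each group.

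At the receptor, neither Tnfrsf1a nor Traf2 differed between the groups beyond the spread of the libraries. Tnfrsf1a was 49.5, 52.0 and 58.8 FPKM in DMSO and 47.6, 58.5 and 61.7 FPKM with ZJU-37. The ranges overlapped, and the log2 fold change was 0.07 ± 0.12 (SE; 95% confidence interval -0.21 to 0.35, adjusted p = 0.756). Traf2, the adaptor that brings cIAP1 and cIAP2 to the receptor, was 15.9, 19.0 and 19.0 FPKM in DMSO and 17.1, 17.9 and 18.2 FPKM with ZJU-37. Its ZJU-37 libraries lay inside the DMSO range, and the log2 fold change was -0.02 ± 0.09 (95% confidence interval -0.23 to 0.19, adjusted p = 0.930). Neither was called with the block, although Tnfrsf1a passed in that fit when pair 1 was left out (adjusted p = 0.0335).

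The other receptor partners, Tradd and Birc2, were lower with ZJU-37 within every pair. Tradd, the death domain adaptor of TNFR1, was 12.3, 14.7 and 15.7 FPKM in DMSO and 8.86, 12.7 and 11.9 FPKM with ZJU-37. ZJU-37 replicate 1 was the lowest library, and the groups overlapped through the DMSO replicate 1 and ZJU-37 replicate 2 libraries. The log2 fold change was -0.34 ± 0.17 (adjusted p = 0.242). With the block, which took out the difference between replicate numbers, it was -0.35 ± 0.10 (adjusted p = 0.0244). The interval of Tradd overlaps a gene on the opposite strand (RGD621098, 2120 counts over the 6 libraries), and whether counting used strand is not given in the sources used here, so its reads could not be told apart from those of that gene.

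Birc2, which encodes the RIPK1 ubiquitin ligase cIAP1, was 36.2, 32.1 and 42.8 FPKM in DMSO and 25.7, 26.8 and 36.3 FPKM with ZJU-37. ZJU-37 replicate 3 reached the level of the lower DMSO libraries, so the groups overlapped. The log2 fold change was -0.32 ± 0.17 (adjusted p = 0.282). With the block it was -0.33 ± 0.07 (adjusted p = 0.00507), and the 3 pairs differed by -0.52, -0.24 and -0.23 on the log2 scale. With pairs 1, 2 and 3 left out in turn, the blocked adjusted p of Birc2 was 0.00117, 0.0213 and 0.0308. The blocked call of Tradd was lost without pair 1 (0.0573) and without pair 3 (0.156), and it was 0.0377 without pair 2.

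In the apoptotic branch, Fadd was higher in every ZJU-37 library and Casp8 lower within every pair. Fadd, the adaptor that joins RIPK1 to caspase-8, is on the minus strand of chromosome 1 from 217742929 to 217748628 in the table's coordinates. It was 6.57, 8.04 and 8.42 FPKM in DMSO and 10.1, 9.39 and 10.6 FPKM with ZJU-37. The lowest ZJU-37 library lay above the highest DMSO library. The fold was 1.31 with a 95% confidence interval from 1.10 to 1.56, and the adjusted p of 0.0561 missed the threshold. With the block the fold was 1.31 with an interval from 1.16 to 1.48 (adjusted p = 0.00458), and the pairs differed by 0.60, 0.24 and 0.34 on the log2 scale. Fadd kept its direction in all 21 alternatives, with log2 fold changes between 0.29 and 0.46. Without both replicate 1 libraries the adjusted p of Fadd was 0.0898 without the block and 0.00313 with it. Leaving out pair 2 or pair 3 gave a blocked adjusted p of 0.00898 and 0.0464.

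Casp8, the initiator protease that cleaves RIPK1 and RIPK3, was 3.61, 5.27 and 5.91 FPKM in DMSO and 2.79, 4.37 and 4.12 FPKM with ZJU-37. The groups overlapped through DMSO replicate 1, which was lower than ZJU-37 replicates 2 and 3. The log2 fold change was -0.39 ± 0.25 (adjusted p = 0.372) and -0.38 ± 0.12 with the block (adjusted p = 0.0389). That blocked call of Casp8 was lost without each pair in turn, at adjusted p of 0.0503, 0.0804 and 0.271. The gene had 101 to 227 counts per library. Cflar, which encodes the caspase-8 brake cFLIP and lies beside Casp8 on chromosome 9, was 9.26, 10.6 and 11.02 FPKM in DMSO and 5.24, 10.99 and 11.1 FPKM with ZJU-37. ZJU-37 replicate 1 alone was low, and the others lay at the level of the DMSO libraries. Its log2 fold change was -0.17 ± 0.29 (adjusted p = 0.753), and without both replicate 1 libraries it was 0.05.

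The ratio of Cflar to Casp8 in FPKM, taken within a library so that depth does not enter, was 2.57, 2.02 and 1.87 in DMSO and 1.88, 2.51 and 2.69 with ZJU-37. The means were 2.15 ± 0.369 and 2.36 ± 0.425 (SD, n = 3), and the ranges overlapped. Cflar stood above Casp8 in all 6 libraries.

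The necroptosis pair, Ripk3 and Mlkl, overlapped between the groups and was lowest in the replicate 1 library of each. Ripk3, the kinase that phosphorylates MLKL, was 17.2, 25.1 and 27.7 FPKM in DMSO and 11.1, 25.8 and 23.4 FPKM with ZJU-37. The spread within a group was wider than the gap between the group means. Its log2 fold change was -0.21 ± 0.34 (95% confidence interval -1.02 to 0.60, adjusted p = 0.740), and the pairs differed by -0.66, 0.06 and -0.23. With the block the adjusted p of Ripk3 was 0.227, and leaving out pair 2 as well brought it to 0.0284.

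Mlkl was 3.11, 4.50 and 5.05 FPKM in DMSO and 2.72, 5.44 and 5.46 FPKM with ZJU-37. Replicate 1 was again the low library of each group, and the pairs differed in sign (-0.22, 0.29 and 0.12 on the log2 scale). Its log2 fold change was 0.11 ± 0.31 (95% confidence interval -0.64 to 0.86, adjusted p = 0.857). With the block the interval of Mlkl narrowed to -0.18 to 0.35 (adjusted p = 0.643).

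Ripk3 exceeded Ripk1 in all 6 libraries. The FPKM ratio of Ripk3 to Ripk1 was 1.71, 1.81 and 2.22 in DMSO and 1.02, 1.97 and 1.86 with ZJU-37, with means of 1.92 ± 0.268 and 1.62 ± 0.520. The ratio of Mlkl to Ripk1 was 0.309, 0.325 and 0.404 in DMSO and 0.249, 0.415 and 0.433 with ZJU-37, with means of 0.346 ± 0.0510 and 0.366 ± 0.101. Both ratios were lowest in ZJU-37 replicate 1 and overlapped between the groups.

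Around the core complex, 66 further genes of the pathway were read in 6 lists, of which 63 were found and 61 tested. Of these 61, 5 were called, 4 lower and 1 higher with ZJU-37, and with the block 22 were called, 15 lower and 7 higher. These shares were 8.20% against 15.0% of all tested genes, and 36.1% against 32.1% with the block. At least 1 FPKM in all 3 libraries of both groups was reached by 55. The fold change was below 0 on the log2 scale for 42 of the 61, with a median of -0.11. Tnfrsf10b, Ticam1 and Chmp4b were not analysed here. Lta was below the filter, and Casp6 was listed at 0 counts in all 6 libraries, where 3 counts would be 0.124 to 0.215 CPM.

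**Figure D4:**
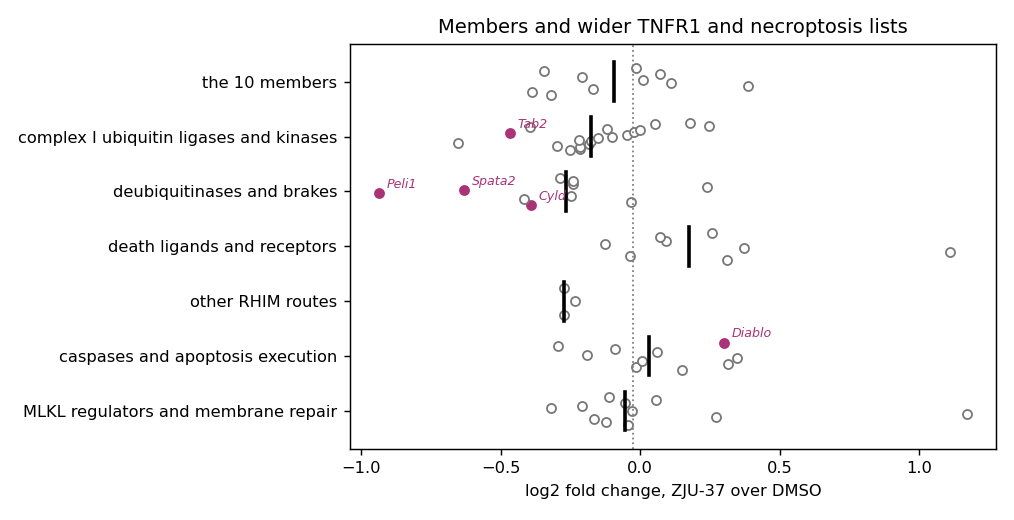
Log2 fold change, ZJU-37 over DMSO, of the tested genes of the 6 wider lists and of the members, a point for each gene, with filled points for an adjusted p under 0.05 and a bar for the median of each list. The dotted line is the median of all tested genes. The called genes are Tab2, Cyld, Spata2, Peli1 and Diablo.

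The list of deubiquitinases and brakes holds genes that edit or bind the ubiquitin chains of complex I, and also the ubiquitin ligase Peli1. Its name does not mean that each gene restrains RIPK1. Of its genes, 3 of 10 were lower and 0 higher, against 5.58% and 9.43% of all tested genes. With the block 7 were lower and 1 higher, against 15.9% and 16.2% of all. The median log2 fold change of the list was -0.27, and no test of the list as a whole was made. Spata2, which links the deubiquitinase CYLD to complex I, was 20.7, 19.0 and 19.5 FPKM in DMSO and 12.3, 13.4 and 12.4 FPKM with ZJU-37. All DMSO libraries of Spata2 lay above all ZJU-37 libraries, and it fell by 0.63 ± 0.07 on the log2 scale (adjusted p = 0.00208). Cyld, which trims the chains on RIPK1, was 8.76, 8.22 and 8.45 FPKM in DMSO and 6.02, 6.78 and 6.56 FPKM with ZJU-37. Its groups did not overlap, and it fell by 0.39 ± 0.08 (adjusted p = 0.0220).

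Peli1, a ubiquitin ligase of the Pellino family that has RIPK1 among its substrates, was 82.8, 67.5 and 60.1 FPKM in DMSO and 36.8, 39.2 and 33.9 FPKM with ZJU-37. The DMSO libraries were spread more widely than the ZJU-37 libraries, without overlap, and Peli1 fell by 0.94 ± 0.13 on the log2 scale (adjusted p = 0.00378). Tnip1, the most abundant gene of this list and a ubiquitin-binding partner of A20, averaged 91.1 and 76.9 FPKM, with a log2 fold change of -0.24 (adjusted p = 0.484, and 0.0179 with the block). Spata2 and Peli1 were called in all 21 alternatives and Cyld in 15. Cyld lost its call without DMSO replicate 1, 2 or 3 or ZJU-37 replicate 3 (adjusted p between 0.0601 and 0.0727), without both replicate 1 libraries (0.0676), and with the block when pair 3 was left out (0.0515).

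Among the ubiquitin ligases and kinases of complex I, 1 of 19 was lower and 0 higher, with 6 lower and 1 higher under the block and a median log2 fold change of -0.18. Called genes were 5.26% of this list against 15.0% of all tested genes, and 36.8% against 32.1% with the block. The gene called without the block was Tab2, which ties the kinase TAK1 to ubiquitin chains. It was 36.5, 35.5 and 34.3 FPKM in DMSO and 24.7, 26.1 and 26.0 FPKM with ZJU-37. These groups were far apart relative to their spread, Tab2 fell by 0.47 ± 0.06 (adjusted p = 0.00295), and all 21 alternatives called it. Mapkapk2, the gene of the RIPK1 kinase MK2, averaged 62.7 and 55.3 FPKM (log2 fold change -0.18, adjusted p = 0.462, and 0.0266 with the block). Sharpin, a subunit of the linear ubiquitin ligase, averaged 34.9 and 32.5 FPKM (log2 fold change -0.10, adjusted p = 0.359).

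No death ligand or receptor was called without the block, against 15.0% of all tested genes. Of the 10 in this list 9 were found, 8 were tested and 4 reached 1 FPKM in all libraries of both groups. Tnf, the ligand of TNFR1, was 0.343, 1.07 and 0.657 FPKM in DMSO and 1.10, 3.35 and 0.121 FPKM with ZJU-37, a spread that covers both groups (adjusted p = 0.539), and its interval in the table overlaps RT1 genes, so its reads are uncertain. The receptors Tnfrsf12a (19.96 and 25.7 FPKM, log2 fold change 0.37, adjusted p = 0.351) and Tnfrsf21 (21.4 and 22.8 FPKM, log2 fold change 0.09, adjusted p = 0.401) were the most abundant. The median log2 fold change of the list was 0.18, and with the block 1 gene was higher. That was 12.5% of the tested genes of the list, against 32.1% of all tested genes.

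The other routes that reach RIPK3 through the same interaction motif had 0 of 3 genes called in either fit. Of all tested genes, 15.0% were called without the block and 32.1% with it. Zbp1, a sensor of Z-form nucleic acids, averaged 9.49 and 7.81 FPKM (log2 fold change -0.27, adjusted p = 0.668). Tlr3, the receptor for double-stranded RNA, averaged 3.95 and 3.26 FPKM (log2 fold change -0.27, adjusted p = 0.425).

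Of the caspases and other apoptosis genes, 1 of 10 was higher and 0 lower, and the block called 3 higher. These shares were 10.0% against 15.0% of all tested genes, and 30.0% against 32.1% with the block. Diablo, which encodes the mitochondrial antagonist of the IAP proteins, was 59.8, 56.6 and 56.0 FPKM in DMSO and 76.0, 67.3 and 68.8 FPKM with ZJU-37. Every ZJU-37 library of Diablo was above every DMSO library, at a log2 fold change of 0.30 ± 0.06 (adjusted p = 0.0237). That call was lost without DMSO replicate 2 (0.0970), DMSO replicate 3 (0.0862) or ZJU-37 replicate 3 (0.0567) and held in the other 18 of 21 alternatives. Cycs, which encodes cytochrome c, averaged 60.4 and 62.6 FPKM (log2 fold change 0.06, adjusted p = 0.826). The counted length of this entry, 318 bases, fills its interval on chromosome 18 (62476383 to 62476700), so the entry has no intron. Whether its reads came from this entry was not tested.

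Regulators of MLKL and genes of membrane rupture and repair had 0 of 11 called, with a median log2 fold change of -0.05, and the block called 1 higher and 2 lower. The blocked share was 27.3%, against 32.1% of all tested genes, and 15.0% of all were called without the block. Ninj1, which ruptures the plasma membrane late in lytic death, averaged 124 and 107 FPKM (log2 fold change -0.21, adjusted p = 0.630, and 0.0437 with the block). Chmp2a, of the ESCRT machinery that repairs membranes, averaged 120 and 110 FPKM (log2 fold change -0.12, adjusted p = 0.304).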

How the data were processed

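Poly(A) RNA of the 6 libraries was sequenced, and the authors deposited a table of raw counts and FPKM per gene, made per the labels with HISAT2 2.0.5, StringTie 1.3.3b and featureCounts 1.5.0. The genome build and the strand setting of counting are not given in the sources used here. The deposited counts were neither normalized nor filtered by the authors, and library totals were 13935865 to 24097927. The deposited FPKM values were scaled by the authors for gene length and library size. The authors' own columns of fold changes and p-values were not used. The study's methods call the libraries biological repeats without naming the preparations, and its figure legend gives the unit as plate wells. The p-values therefore measure the spread between these samples, which may be wells rather than separate animals or preparations.

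Counts were filtered with filterByExpr, scaled by TMM (factors 0.981 to 1.04) and fitted with edgeR 4.0.16 (robust quasi-likelihood, R 4.3.3) over 14670 genes, with Benjamini-Hochberg adjustment and a threshold of 0.05. Standard errors came from the fold change and its F statistic. The fit was also run on simulated counts, with the outcome not reported here. Those counts held no effect of the replicate number, so that run cannot speak for the blocked fit in these data. Same-numbered libraries deviated together (r = 0.39, 0.31 and 0.33, against -0.27 to -0.01 for other pairs), so the numbers were taken to pair the samples and the blocked fit is given where it changes a call.

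Named genes were all members, the wider-list genes with adjusted p under 0.05, the 2 most abundant of each list, and the 3 closest to Ripk1. Tnf and Cdh5 were named after their values were seen, as were the unmatched and untested genes. The members and lists were chosen with earlier results of these data known. Alternatives were DESeq2 1.42.0, limma 3.58.1 (voom, and log2(FPKM + 1) or log2(FPKM + 0.1)), other scalings and low-count filters (10 counts in each library, or no filter), thinned counts, each library left out, and the block. Leaving out both replicate 1 libraries, or a pair within the blocked fit, was chosen after seeing the data.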

Additional observations from a re-analysis of the deposited data

How the results depend on the processing

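Among the alternatives that kept all 6 libraries, the replicate block moved the counts most. With it 4705 of all tested genes (2371 higher, 2334 lower, against 1383 and 818 without it), 4 of 10 members and 22 of the 61 wider genes were called, and with pair 1, 2 or 3 also left out 4885, 3373 and 2461 genes, 3, 4 and 2 members, and 24, 12 and 9 wider genes. Fadd and Birc2 were among the members called in each of these blocked fits, and the block changed no call among the named genes other than those given with it. Leaving out single libraries gave 1306 to 1927 called genes, 0 members and 3 to 6 wider genes. DESeq2 called 1 member and the fit with no filter on low counts 1, Fadd both times. Signs turned only for members whose log2 fold change was near 0 or smaller than its error. Without both replicate 1 libraries Ripk1 was at -0.0137 and Cflar at 0.0488 without the block and at -0.0121 and 0.0488 with it. Blocked without pair 2, Mlkl was at -0.0336. Traf2 was at 0.0125 with library size only, and at 0.00968 and 0.00633 in the blocked fits without pair 2 and without pair 3. Over single libraries left out, log2 fold changes ranged from -0.10 to 0.11 for Ripk1, -0.41 to 0.10 for Ripk3, -0.0622 to 0.39 for Mlkl, -0.32 to 0.13 for Cflar and -0.0923 to 0.0345 for Traf2. The cause was not tested. With 3 libraries a group, precision is limited by the spread between libraries, and Casp8 had 101 to 227 counts per library.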
